A study of Rhodotorula toruloides with 36 samples.

Results

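The effect of acetate was measured in low-nitrogen cultures of the yeast Rhodotorula toruloides IFO0880 sampled at 88 h. Of the 36 messenger RNA libraries in the series, the comparison used the 6 whose titles combine low nitrogen with 88 h, 3 with acetate and 3 without. The 6 libraries were taken by their titles, not by their values. Of 8490 annotated genes, 8314 had enough counts to be tested. The acetate cultures held 2 g/L acetate and the others 0 g/L, and both held 0.1 g/L ammonium sulfate. A further 0.75 g/L yeast extract in low nitrogen appears in the series' design text but not in its treatment protocol. Cultures of the same 2 kinds at 48 and 64 h, and high-nitrogen cultures at 88 h, served to test whether the effect differed with time or nitrogen. For high nitrogen the 2 texts disagree: the protocol has 5 g/L ammonium sulfate, and the design text has 10 g/L.

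All flasks descended from 3 colonies of this strain grown first in glucose medium, per the labels' protocols. The series title names acetate and xylose, and the labels leave the carbon source of the sampled flasks unstated. The titles call the replicates biological but do not say what a replicate number stands for. Nor do they say whether the 3 times were drawn from the same flasks. P-values therefore measure the spread between these libraries, and comparisons across times treat all libraries as independent.

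R. toruloides is an oleaginous basidiomycete, a fungus that accumulates storage lipid once nitrogen becomes limiting. In yeasts, acetate is activated to acetyl-CoA, the unit from which fatty acids are built. Growth on acetate as a carbon source also draws on the glyoxylate cycle and gluconeogenesis to make larger carbon skeletons. The tables used here do not say which catalogue number encodes which enzyme, so genes are described by number, position, structure and level, and their functions are not given.

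The acetate libraries held 17652017 to 24631179 counts on genes and the libraries without acetate 18389161 to 63174795. Levels are given in CPM, counts scaled to a common library size, which are shares of the library and not corrected for gene length. A lower CPM in such bulk RNA cannot tell fewer expressing cells from less RNA per cell. Log2 CPM correlated across genes at r = 0.994 to 0.9955 between libraries of 1 group and at 0.957 to 0.9731 between an acetate library and one without. These correlations are across genes, which are not independent replicates. The first principal component held 82.0% of the variance over the 6 libraries and placed all 3 acetate libraries on 1 side. The 10 most abundant genes took 10.3% ± 0.377 of counts with acetate and 10.2% ± 0.427 without it (SD, n = 3 each). That difference was within the spread between libraries (exact two-sided permutation test, p = 0.7, where 0.1 is the smallest p possible). The 100 most abundant genes took 27.97% ± 0.238 with acetate and 28.6% ± 0.294 without (SD, n = 3 each), and the groups did not overlap (same exact test, p = 0.1).

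Acetate moved a large share of the transcriptome at 88 h, mostly by small amounts. Of the genes tested, 3948 were called, which is 47.5%, with adjusted p below 0.05 in edgeR's quasi-likelihood test. Of these, 2092 rose with acetate (25.2% of genes tested) and 1856 fell (22.3%). Of the called genes, 3303 changed by less than 2-fold. The rest comprised 393 that were at least 2-fold higher (4.73%) and 252 that were at least 2-fold lower (3.03%). The median absolute log2 fold change was 0.55 over called genes and 0.30 over all genes tested. Large rises outnumbered large falls at 4-fold, with 75 genes higher and 24 lower. At 16-fold the order was the other way, with 3 higher and 6 lower. Among these 6 were neighbours in 1 stretch of scaffold 10, described below, with log2 fold changes of -4.01, -4.93, -4.85 and -5.01. Levels in the 3 acetate libraries did not overlap those in the 3 libraries without acetate for 5470 genes, which is 65.8% of genes tested. This held for 641 of the 645 genes changed at least 2-fold. No gene averaged below 1 CPM in 1 group and 10 CPM or more in the other.

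**Figure D1:**
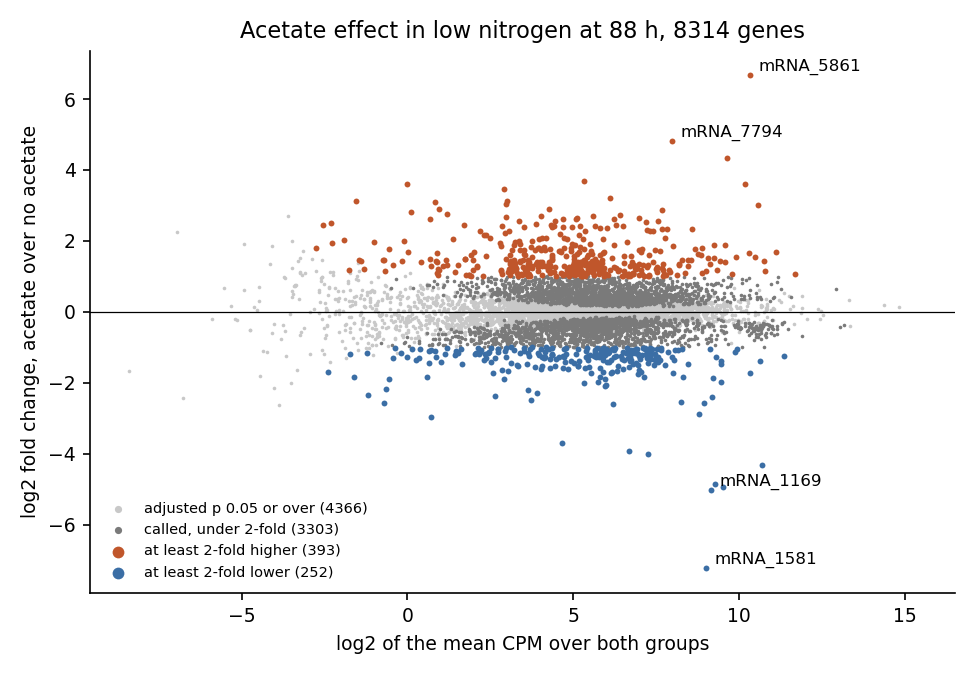
Log2 fold change of acetate over no acetate (vertical axis) against the log2 of the mean CPM over both groups (horizontal axis) for the 8314 genes tested, 1 point a gene, with the 4 named genes labelled. Most called genes lie within 2-fold, and the lowest 6 points, among them mRNA_1581 and mRNA_1169, lie further from 0 than all but 3 of the rises.

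The largest rise belonged to mRNA_5861 (protein 14229), a gene of 19 exons on the minus strand of scaffold 5 at 1105736 to 1108814 in the catalogue for assembly version 4. It had 2675, 2489 and 2532 CPM in the acetate libraries, against 24.2, 25.1 and 26.3 CPM without acetate. All 3 acetate libraries lay far above the others, and each group was tight. The log2 fold change was 6.67 (SE 0.32, adjusted p = 3.64e-16). In low nitrogen this gene was already high with acetate at 48 h (3413 against 27.2 CPM) and at 64 h (3147 against 18.9 CPM). Its acetate effect at 88 h did not differ detectably from that at 48 h (log2 difference -0.30, adjusted p = 0.529) or at 64 h (-0.71, adjusted p = 0.162). In high nitrogen at 88 h it averaged 15.7 CPM with acetate and 61.0 CPM without, and there it fell (log2 fold change -1.96, adjusted p = 1.55e-07).

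The next-largest rise was that of mRNA_7794 (protein 16162), a 2-exon gene on the minus strand of scaffold 8 at 1082100 to 1083508. It had 449, 510 and 514 CPM with acetate, against 11.3, 13.6 and 26.7 CPM without. The groups were far apart, and replicate 3 was the highest library without acetate. The log2 fold change at 88 h was 4.83 (SE 0.26, adjusted p = 3.78e-15), after 2.89 at 48 h and 3.99 at 64 h. The mean with acetate was 217 CPM at 48 h, 738 CPM at 64 h and 491 CPM at 88 h, while without acetate it was 29.4, 46.4 and 17.2 CPM at the same times. High-nitrogen cultures also had high levels with acetate at 48 h (289 against 6.65 CPM) and at 64 h (124 against 9.61 CPM), but at 88 h had 13.2 CPM with acetate and 9.68 CPM without. That last difference was not called (log2 fold change 0.43, adjusted p = 0.104).

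Among genes that fell, mRNA_1581 (protein 9949) changed most. It lies on the plus strand of scaffold 11 at 651714 to 653081, with 318 bp of coding sequence in 8 exons. It had 7.78, 5.21 and 7.53 CPM with acetate, against 1207, 1023 and 845 CPM without. All 3 acetate libraries lay far below the others. The log2 fold change was -7.23 (SE 0.25, adjusted p = 5.41e-19), after -6.36 at 48 h and -6.49 at 64 h. Without acetate, its mean in low nitrogen was 85.6 CPM at 48 h, 555 CPM at 64 h and 1025 CPM at 88 h. With acetate it stayed between 1.04 and 6.84 CPM over the same times. In high nitrogen it was also low with acetate at 48 h (2.09 against 988 CPM) and at 64 h (15.4 against 834 CPM). At 88 h in high nitrogen it had 970 CPM with acetate and 750 CPM without, which was not called (log2 fold change 0.37, adjusted p = 0.0741).

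The next-largest fall was that of mRNA_1169 (protein 9537), on the plus strand of scaffold 10 at 563221 to 566148. It had 40.5, 33.3 and 29.2 CPM with acetate, against 944, 1531 and 858 CPM without. The groups did not overlap, and replicate 2 without acetate was the highest library. The log2 fold change was -5.01 (SE 0.19, adjusted p = 3.02e-18). At 48 h in low nitrogen it averaged 33.3 CPM with acetate and 35.2 CPM without, and the difference was not called (adjusted p = 0.716). At 64 h it averaged 21.1 CPM with acetate and 33.7 CPM without (log2 fold change -0.64, adjusted p = 0.00436). In high nitrogen at 88 h it averaged 30.1 CPM with acetate and 42.9 CPM without (log2 fold change -0.51, adjusted p = 0.0075).

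**Figure D2:**
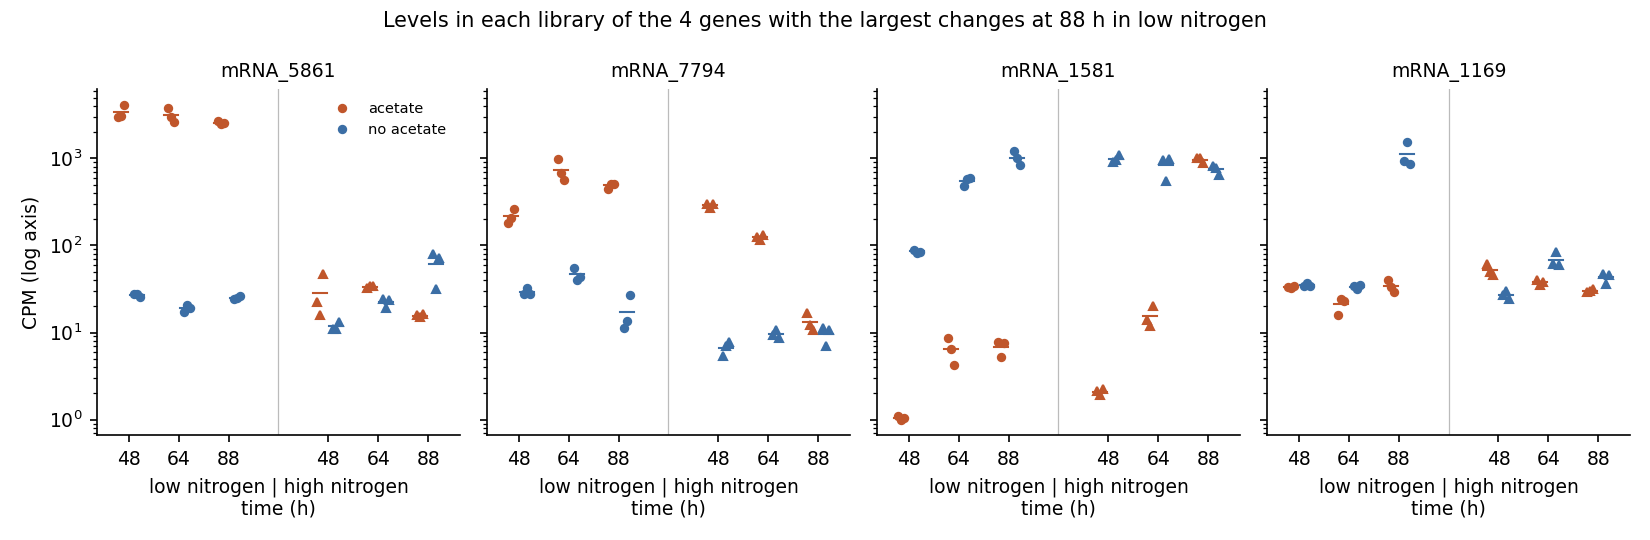
CPM on a log axis in each of the 36 libraries for 4 genes, by time and nitrogen, with acetate libraries left of those without and a bar at each group mean. In low nitrogen mRNA_5861, mRNA_7794 and mRNA_1581 differ with acetate at all 3 times, while mRNA_1169 reaches 858 CPM or more in the 3 low-nitrogen libraries without acetate at 88 h and stays below 100 CPM in all others.

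The gene numbered mRNA_1169 stands at the end of a stretch of neighbours on scaffold 10 that were low with acetate and high without it at 88 h. The stretch, 552545 to 566148 (13.6 kb), holds 6 adjacent genes, of which 5 fell at least 2-fold with acetate, at log2 fold changes of -1.89 to -5.01. The other one also fell, by less (log2 fold change -0.76, adjusted p = 1.13e-08). The stretch was picked out after the values had been seen, so its combined level is a description. Summed over the 6 genes, the acetate libraries had 213, 178 and 169 CPM, against 3526, 5518 and 3213 CPM in the libraries without acetate. The mean was 186 ± 23.1 CPM with acetate and 4086 ± 1250 CPM without (SD, n = 3 each). In the 33 libraries outside the group without acetate at 88 h in low nitrogen, the sum ranged from 90.4 to 219 CPM. Among these, the high-nitrogen mean at 88 h was 105 ± 1.59 CPM with acetate and 179 ± 6.63 CPM without (SD, n = 3 each). The largest fall there was that of mRNA_1168 (log2 fold change -1.29, adjusted p = 3.84e-08), while the first gene of the stretch was not called (adjusted p = 0.386).

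Within the stretch, mRNA_1166 (protein 9534, minus strand, 554696 to 557375) had 55.2, 42.8 and 41.4 CPM with acetate, against 1241, 1900 and 1122 CPM without. Its neighbour mRNA_1168 (protein 9536, minus strand, 560830 to 563177) had 47.2, 40.0 and 36.0 CPM with acetate, against 1014, 1617 and 937 CPM without. Neither pair of groups overlapped. The genes lie on both strands, 3 on plus and 3 on minus, and none overlaps another in the catalogue. The first gene of the stretch was barely detected, at 0.284 CPM with acetate and 1.09 CPM without. Beyond the last gene the next one was not called (log2 fold change 0.00, adjusted p = 0.978), and the gene before the first did not pass the test (log2 fold change -0.19, adjusted p = 0.225). Without replicate 2 of the group without acetate, the deepest and highest library, the lowest log2 fold change of the stretch was -4.71.

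**Figure D3:**
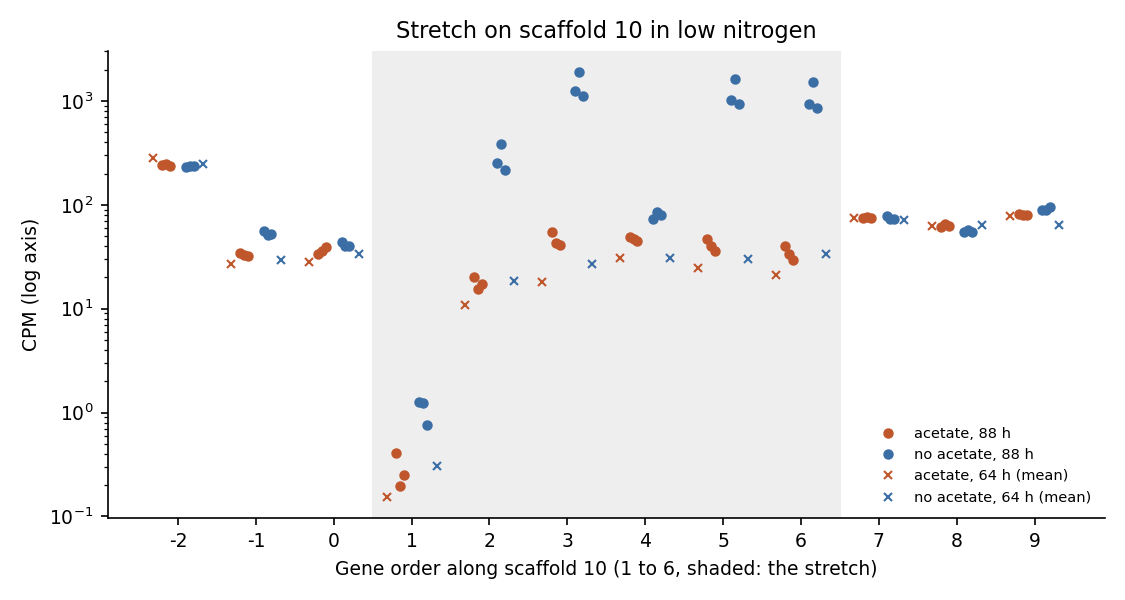
CPM on a log axis for the 6 genes of the scaffold 10 stretch (shaded, genes 1 to 6) and 3 flanking genes on each side, in low nitrogen, with acetate points left of those without; dots are single 88 h libraries and crosses 64 h means. Genes 2, 3, 5 and 6 are far higher in the libraries without acetate at 88 h than in any other point shown for that gene, and the flanking genes are not.

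Other neighbouring genes changed together on a smaller scale. Runs of at least 4 adjacent genes, all changed at least 2-fold in 1 direction, numbered 1 among rises and 2 among falls and held 12 genes in all. The run of rises lay on scaffold 2 at 1089725 to 1102987, with log2 fold changes of 1.01 to 2.37. The runs of falls lay on scaffold 8 at 808432 to 817556 (-1.23 to -1.11) and on scaffold 20 at 14873 to 18669 (-1.58 to -1.11). The 4 genes on scaffold 20 shared the minus strand, and 3 of them were at least 2-fold lower with acetate in each of the other comparisons, at 48 h, at 64 h and in high nitrogen at 88 h. In all of these comparisons together, 2 were. With 1 other gene allowed between members, a definition added after the values were seen, scaffold 1 at 625788 to 637232 held 4 rises among 5 genes (1.45 to 3.13). Those 4 genes were at least 2-fold higher at 48 and 64 h as well, and none was in high nitrogen at 88 h. In the catalogue 2 genes there overlap another gene, so how their reads were assigned is uncertain.

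The 393 genes that rose at least 2-fold and the 252 that fell at least 2-fold were followed through the other groups. They were chosen on the 88 h low-nitrogen libraries, so their levels there are a description. The higher genes took 6.26% ± 0.311 of all counts with acetate at 88 h and 2.07% ± 0.0656 without. At 48 h their share was 8.10% with acetate and 5.82% without, and at 64 h 8.01% with acetate and 3.84% without. The lower genes took 1.42% ± 0.0986 with acetate at 88 h and 4.44% ± 0.0839 without (SD, n = 3 each), after 1.17% with and 1.59% without acetate at 48 h and 1.12% with and 2.36% without at 64 h. In both lists the wider range over time was in the cultures without acetate.

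Gene by gene, the 393 higher genes had a median log2 difference between 88 and 48 h of -0.35 with acetate and -1.44 without. At least 2-fold lower levels at 88 h than at 48 h were seen for 101 of them with acetate (25.7%) and for 257 without (65.4%), beside 13.9% of all genes tested with acetate and 15.6% without. The 252 lower genes had a median log2 difference between 88 and 48 h of 0.34 with acetate and 1.43 without, and 74 with acetate (29.4%) and 187 without (74.2%) were at least 2-fold higher at 88 h. Over all genes tested those shares were 15.5% with acetate and 12.7% without. The medians over all genes were 0.04 with acetate and -0.01 without. These differences over time were not tested, and the 88 h levels in them are those that chose the lists.

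The acetate effects at 48 h, at 64 h and in high nitrogen come from other libraries than those at 88 h in low nitrogen. Of the 393 genes higher at 88 h, 105 (26.7%) were also at least 2-fold higher at 48 h, which is 32.2% of the 326 genes higher then and stands beside 3.92% of all genes tested. At 64 h, 170 (43.3%) were, or 55.7% of the 305 higher then, beside 3.67% of all genes tested. For 78 genes the rise was at least 2-fold at all 3 times, and for 196 only at 88 h by this threshold. Of these 196, 25 were not called in either direction at 48 or 64 h. In the other direction, 34 of the 393 (8.65%) were at least 2-fold lower with acetate at 48 h, near the 6.60% of all genes tested, and 1 at 64 h, beside 2.50%.

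Of the 252 genes that fell at least 2-fold at 88 h, 60 (23.8%) were at least 2-fold lower at 48 h, or 10.9% of the 549 genes lower then, beside 6.60% of all genes tested. At 64 h, 65 (25.8%) were, which is 31.25% of the 208 genes lower then, beside 2.50% of all genes tested. At least 2-fold falls at all 3 times were found for 43 genes. For 170 the fall reached 2-fold only at 88 h, and 85 of these were not called in either direction at 48 or 64 h. Of all genes tested, 51.1% were called at 48 h and 41.9% at 64 h, and 30.3% at neither time. In high nitrogen at 88 h, 141 of the 393 higher genes (35.9%) and 87 of the 252 lower genes (34.5%) changed at least 2-fold in the same direction, beside 12.8% and 14.3% of all genes tested. A further 20 of the higher genes (5.09%) and 26 of the lower ones (10.3%) changed at least 2-fold in the opposite direction. Over all genes tested, 14.3% were at least 2-fold lower there and 12.8% at least 2-fold higher. All 4 acetate comparisons were shared by 26 higher and 12 lower genes.

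**Figure D4:**
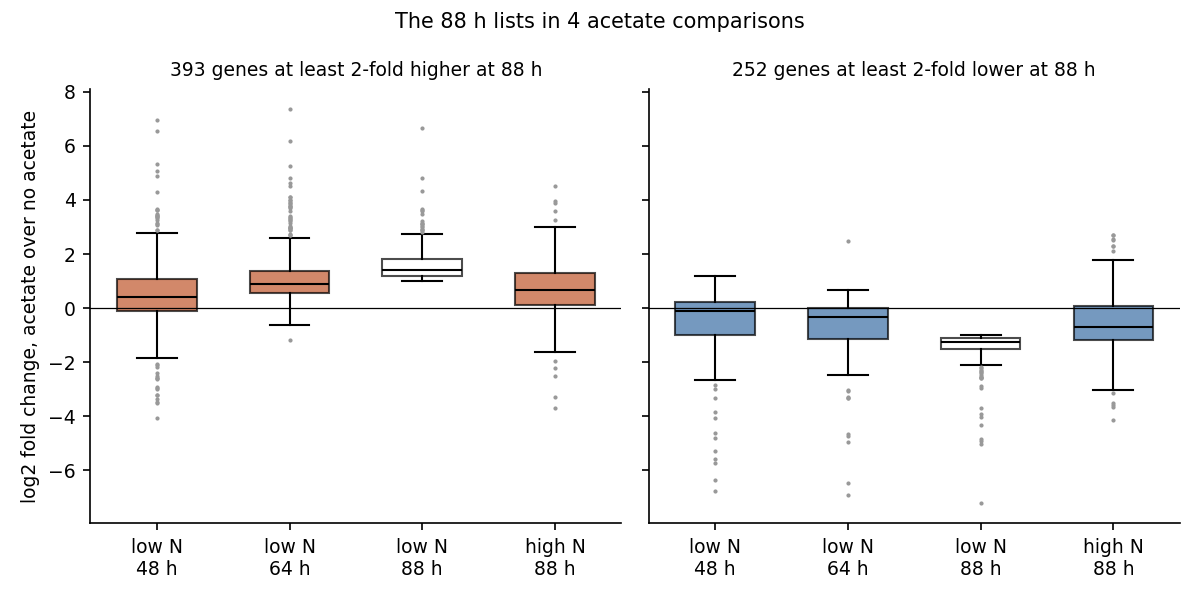
Log2 fold change of acetate over no acetate for the 393 genes at least 2-fold higher (left) and the 252 at least 2-fold lower (right) at 88 h in low nitrogen, in 4 acetate comparisons; boxes span the quartiles, lines the medians, whiskers reach 1.5 quartile ranges at most, dots lie beyond. The open boxes are the comparison that chose the lists, and the medians elsewhere are nearer to 0, at 0.41, 0.90 and 0.66 for the higher genes and -0.13, -0.33 and -0.70 for the lower ones, at 48 h, 64 h and in high nitrogen.

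Whether the acetate effect itself differed between 88 and 48 h in low nitrogen was tested with an interaction term, the log2 fold change at 88 h minus that at 48 h. It was called for 3529 genes (42.4%), of which 2000 were more positive at 88 h (24.1%) and 1529 more negative (18.4%). With library totals alone in place of TMM scaling the split was 1579 more positive and 1943 more negative. At least 2-fold differences numbered 675 more positive (8.12%) and 437 more negative (5.26%). The most negative were those of mRNA_1169 (log2 -4.93, SE 0.25, adjusted p = 2.87e-15) and mRNA_1168 (-4.72, SE 0.24), both of the scaffold 10 stretch. At 48 h mRNA_1168 averaged 35.9 CPM with acetate and 39.3 CPM without.

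The most positive difference was that of mRNA_4051 (protein 12419, scaffold 2, 1242225 to 1242676, plus strand), at log2 5.80 (SE 0.63, adjusted p = 1.33e-08). At 88 h it had 10.3, 9.40 and 8.47 CPM with acetate, against 11.9, 18.1 and 18.0 CPM without, a difference that was not called (adjusted p = 0.067). At 48 h it had 0.272, 0.480 and 0.550 CPM with acetate, from 34 counts in all, against 43.3, 51.8 and 34.0 CPM without. The positive difference thus came with a large fall at 48 h and a small, uncalled one at 88 h.

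For mRNA_4787 (protein 13155, scaffold 3, 1011641 to 1014528, plus strand) the direction turned over time. At 88 h it had 49.98, 40.8 and 52.1 CPM with acetate, against 15.1, 11.2 and 14.9 CPM without (log2 fold change 1.81, adjusted p = 2.57e-05). At 48 h it had 31.1, 37.9 and 34.9 CPM with acetate, against 374, 426 and 366 CPM without (-3.49, adjusted p = 3.75e-10). The difference was 5.30 (SE 0.45, adjusted p = 1.14e-10). This gene overlaps a neighbour on the same strand in the catalogue, so how its reads were assigned is uncertain.

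Fewer differences in the acetate effect were called between 88 and 64 h than between 88 and 48 h. The interaction was called for 2054 genes (24.7%), 1026 more positive (12.3%) and 1028 more negative (12.4%) at 88 h, with 206 (2.48%) and 254 (3.06%) at least 2-fold. With library totals alone the median over all genes moved by 0.17 and the calls became 1977 more positive and 586 more negative, so the balance of directions differed with the scaling. The most negative were mRNA_1168 (log2 -4.62, SE 0.24) and mRNA_1166 (-4.38, SE 0.29), again of the scaffold 10 stretch. With totals alone they were -4.44 and -4.21. The shallowest of the 36 libraries, at 10173719 counts, was acetate replicate 1 at 64 h in low nitrogen. Counts of low-nitrogen replicate pairs differed by a chi-square per degree of freedom of up to 44.3 at 64 h and 19.4 at 48 h. The part of depth and spread in the lower number of calls was not tested.

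The most positive difference from 64 h was that of mRNA_7939 (protein 16307, scaffold 9, 58388 to 59651, plus strand), at log2 3.94 (SE 0.73, adjusted p = 0.00019). It rests on few counts, with 22 over the 3 acetate libraries at 88 h and 4 at 64 h. Its mean was 0.385 CPM with acetate and 2.91 CPM without at 88 h, and 0.0695 CPM with acetate and 11.0 CPM without at 64 h, so acetate libraries were lower at both times. Next was mRNA_2815 (protein 11183, scaffold 15, 286739 to 289014, plus strand), at 2.25 (SE 0.25, adjusted p = 7.19e-08). At 88 h it had 5.13, 6.18 and 5.06 CPM with acetate, against 3.76, 3.61 and 5.62 CPM without, and the groups overlapped. At 64 h it had 3.42, 2.92 and 3.89 CPM with acetate, against 10.0, 14.0 and 14.3 CPM without.

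At 88 h the acetate effect differed between low and high nitrogen for 5236 genes (63.0%), 2729 more positive (32.8%) and 2507 more negative (30.2%) in low nitrogen, with 1195 (14.4%) and 980 (11.8%) at least 2-fold. With library totals alone the median over all genes moved by 0.46, and the calls became 4535 more positive and 1263 more negative. In the high-nitrogen group without acetate at 88 h, replicate 2 stood apart from its partners. Its counts differed from theirs by a chi-square per degree of freedom of 155 and 87.5, against 14.5 between the others. Without that library the interaction was called for 5065 genes, and 1035 and 940 were at least 2-fold.

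The most positive difference between nitrogen levels was that of mRNA_5861 (log2 8.63, SE 0.41, adjusted p = 8.34e-16), which rose with acetate in low nitrogen and fell in high. Without the library that stood apart it was 8.94. Next was mRNA_4664 (protein 13032, scaffold 3, 726473 to 727733, plus strand), at 6.34 (SE 0.50, adjusted p = 2.71e-11). In low nitrogen it had 4.63, 4.33 and 4.43 CPM with acetate, against 3.88, 5.58 and 5.10 CPM without, with overlapping groups. In high nitrogen it had 8.96, 7.19 and 6.96 CPM with acetate, against 1022, 213 and 825 CPM without. The value of 213 CPM belongs to the library that stood apart, and without it the difference was 6.77.

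The most negative was that of mRNA_1581 (log2 -7.60, SE 0.30, adjusted p = 2.5e-17), and without the same library it was -7.63. Next was mRNA_6044 (protein 14412, scaffold 5, 1510436 to 1511474, minus strand), at -5.92 (SE 0.42, adjusted p = 2.88e-12). In low nitrogen it was scarce in both groups, with 1.39, 1.02 and 1.52 CPM with acetate, against 2.36, 2.24 and 2.76 CPM without. That small fall was called (log2 fold change -0.90, adjusted p = 0.0273). In high nitrogen it had 108, 77.6 and 65.9 CPM with acetate, against 1.93, 3.67 and 2.06 CPM without. Its difference without the library that stood apart was -6.30.

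Among the lists of 88 h, the interaction was called for 277 of the 393 higher genes against 48 h (70.5%, beside 42.4% of all genes tested) and for 191 against 64 h (48.6%, beside 24.7%). Against high nitrogen it was called for 262 (66.7%), near the 63.0% of all genes tested. Of these, 256, 165 and 245 had the more positive acetate effect at 88 h in low nitrogen, which is not always the larger in size. For the 252 lower genes the interaction was called for 174 (69.0%), 150 (59.5%) and 177 (70.2%), beside the same shares of all genes, and of these 157, 142 and 150 were more negative at 88 h in low nitrogen. The lists were chosen on libraries that enter these interactions, so their direction there is partly fixed by that choice. Of genes that reached 2-fold only at 88 h, 112 of the 196 higher ones had both interactions over time called as more positive. Of the 170 lower ones, 122 had both called as more negative. Over all genes tested, both were called as more positive at 88 h for 6.77% and as more negative for 7.07%. The 196 and 170 genes were picked by their effects at 48, 64 and 88 h together. The direction of these interactions is thus largely fixed by that choice, and these shares cannot serve as a test.

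Long genes had more calls and more rises than genes of other lengths. Among the 758 tested genes with a coding length of 3000 bp and over, 65.8% were called, against 47.5% of all genes tested. At least 2-fold rises were found for 71 of them (9.37%) and falls for 22 (2.90%), beside 4.73% and 3.03% of all genes. Their median log2 fold change was 0.28. From short to long, the medians were -0.11 under 300 bp, -0.07 from 300 to under 1000 bp, -0.01 from 1000 to under 2000 bp and 0.14 from 2000 to under 3000 bp. Genes of 20 or more exons, 67 in all, had a median of 0.35, with 4 rises and 0 falls of at least 2-fold, and 62.7% of them were called.

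The median log2 CPM of the long genes was 6.64, 6.69 and 6.68 in the acetate libraries, against 6.39, 6.44 and 6.40 without acetate, and the groups did not overlap. In the other acetate comparisons their median log2 fold change was 0.03 at 48 h, 0.38 at 64 h and 0.24 in high nitrogen at 88 h. Long genes also had higher counts, with a median of 98.3 CPM over the 6 libraries against 41.5 CPM for all genes tested, and CPM grows with gene length. When genes were split by mean level into 4 equal groups, 21.3% of the 127 long genes in level group 2 rose at least 2-fold, against 3.84% of the 1951 shorter ones. In the highest group the shares were 4.47% of 358 and 3.89% of 1721. Falls of at least 2-fold in the highest group were found for 4.75% of the long genes and 3.14% of the shorter ones. In level group 2 the shares of falls were 0% and 1.95%. The finer length groups were added after the values were seen, and the part of RNA length or quality in this pattern was not tested.

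**Figure D5:**
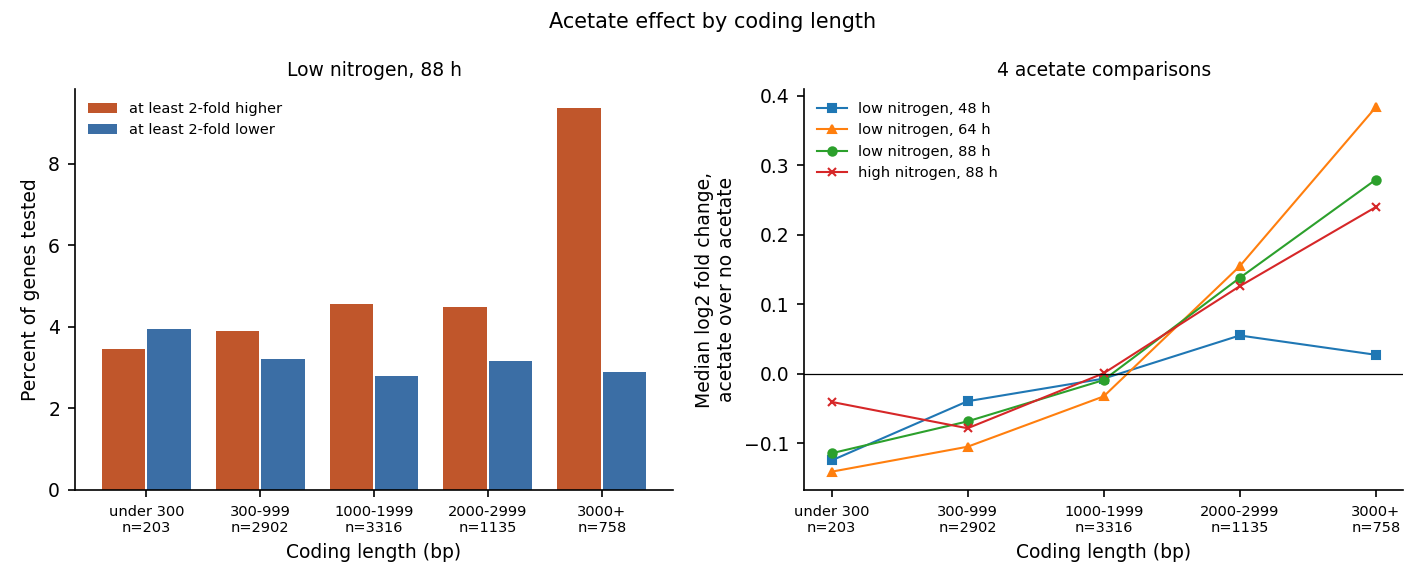
Left, the percent of tested genes at least 2-fold higher or lower with acetate at 88 h in low nitrogen, by coding length in bp; right, the median log2 fold change of acetate over no acetate in the same groups for 4 acetate comparisons. The share of rises is 9.37% at 3000 bp and over and below 5% in each shorter group, and the median is highest there in all comparisons but that at 48 h, where medians stay between -0.13 and 0.05.

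Changed genes were spread over the strands and scaffolds. On the plus strand 47.1% of genes were called and on the minus strand 47.9%. Among the 18 scaffolds with at least 50 tested genes, the share of genes at least 2-fold higher ran between 2.31% on scaffold 10 and 9.23% on scaffold 18, where 12 of 130 genes rose and 1 fell. The group of lowest mean level had fewer called genes, at 37.5%, than the other 3, at 49.0%, 52.9% and 50.6%, but the most 2-fold changes, with 147 rises and 82 falls.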

How the data were processed

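Messenger RNA was read from stranded libraries for 151 cycles at each end on 1 sequencing lane, per the labels' protocols. The deposited values are whole-number counts for each mRNA number of the strain's gene catalogue (assembly version 4). The sample description calls its second column both raw and CPM, but the values are whole numbers whose totals differ between libraries, so the deposited counts were used as raw. The submitters' processing notes name STAR 2.7.10a, featureCounts and Subread 2.0.4, besides Trimmomatic 0.39, FastQC 0.11.9 and MultiQC 1.9. Their roles, the strand setting and the treatment of reads with several matches are not given in the sources used here. Replicates were not pooled.

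Counts were analysed with edgeR 4.0.16 in R 4.3.3. After edgeR's default filter on low counts over 12 groups, 8314 genes were tested and 176 were not. Libraries were scaled by TMM. The quasi-likelihood F-test used every one of the 36 libraries and estimated 1 mean for each group, and p-values were adjusted by Benjamini-Hochberg over all genes tested. A gene was called at adjusted p below 0.05, and a 2-fold change also needed a log2 fold change of 1 or more in size. All adjusted p in the text come from this test. Each printed SE was derived from the log2 value and its F statistic (the size of the log2 value over the root of F); the fit itself gives none. Log2 CPM used a prior count of 2.

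Named genes are the 2 highest and 2 lowest of each of 4 results, the acetate effect at 88 h and 3 interactions. They had to be called, to average 10 CPM or more in the highest group and, for the acetate effect, no overlap between libraries. The comparison, lists and rules were chosen with earlier results of these data known. Lists of genes by function had no members, since no table used here pairs catalogue numbers with names, and no sequence or genome was used. The test of the acetate effect was tried on counts simulated from its own fitted spread. There 50 genes changed at each of 1.5, 2, 4 and 8-fold, and 33, 48, 49 and 49 of them were called. Of 8114 unchanged genes, 11 were called. Far fewer genes changed there than were called in the data, so it cannot check the scaling where many genes move. Results were recomputed with library totals alone, with RLE size factors, with DESeq2 1.42.0, with 2 other filters, with a replicate block, within the compared groups alone, and leaving out single libraries. With 3 libraries a group, no test for outliers was run. The shallowest of the 6 libraries compared held 17652017 counts, which limits the precision of genes below about 1 CPM.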

Additional observations from a re-analysis of the deposited data

Results flagged for a closer look

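The acetate effect at 88 h in low nitrogen differed from that under 3 other conditions by the interaction test, and no explanation was tested. Against 48 h the difference was called for 3529 genes, and those named were mRNA_1169 (log2 -4.93), mRNA_1168 (-4.72), mRNA_4051 (5.80) and mRNA_4787 (5.30). Against 64 h it was called for 2054 genes, and those named were mRNA_1168 (-4.62), mRNA_1166 (-4.38), mRNA_7939 (3.94) and mRNA_2815 (2.25). Low minus high nitrogen was called for 5236 genes, and those named were mRNA_1581 (-7.60), mRNA_6044 (-5.92), mRNA_5861 (8.63) and mRNA_4664 (6.34).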

How the results depend on the processing

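The acetate effect at 88 h was called for 3283 to 3708 genes with 1 library left out and for 3783 to 4796 under the other alternatives, and 82.5% to 99.5% of the original calls were kept. At least 2-fold rises numbered 352 to 477 and falls 231 to 298 with 1 library left out. Interaction calls with 1 library left out were 3137 to 3398 against 48 h, 1607 to 2059 against 64 h and 4984 to 5165 against high nitrogen. The 16 values of named genes kept their direction and their call in all 296 alternatives. They were chosen as the most extreme called values of these data, so this does not speak for calls in general. The lowest shares of original interaction calls kept were 87.5% against 48 h, 76.5% against 64 h and 76.4% against high nitrogen. With library totals alone, at least 2-fold differences became 341 more positive and 163 more negative against 64 h, and 2313 and 376 against high nitrogen; TMM, RLE and totals differ only in how libraries are scaled. Runs held 39 genes with at least 3 adjacent genes and 29 with 1 other gene allowed between members, as these definitions admit more runs. The difference in share of the 10 most abundant genes ranged between -0.0567 and 0.365 percentage points with 1 library left out, and that of the 100 most abundant between -0.769 and -0.486.

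Deviations of same-numbered libraries from their group means correlated at 0.15, 0.17 and -0.10, so the replicate numbers were not taken to pair the cultures, and not every library correlated best with its own number. With a replicate block the acetate effect was called for 3979 genes over all 36 libraries and for 4670 in the 6 alone, against 4796 in the 6 without the block. The block left all calls of named genes in place.

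Leaving out libraries of the 48 h, 64 h and high-nitrogen groups was added after the data were seen. Gene functions, GC content and paralogs were not analysed here. Genes below about 1 CPM rest on few counts.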

Other observations

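Measured as CPM, the 10 genes with the largest gains summed to 91574 CPM with acetate and 67098 CPM without. Of these 10 genes, 7 were called and 6 rose at least 2-fold, beside 47.5% and 4.73% of all genes tested. The 10 genes with the largest losses summed to 30376 CPM with acetate and 50155 CPM without, and 9 of them were called and 6 fell at least 2-fold, beside 47.5% and 3.03% of all genes tested. These sets were chosen by the size of their difference and got no test of their own.

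Among genes with 1 other gene allowed between members, scaffold 3 at 1722157 to 1732300 held 4 rises among 5 genes, at log2 fold changes of 1.15 to 2.32. All 4 also rose at least 2-fold at 64 h and none at 48 h. The lowest mean among the 4 was 0.872 CPM with acetate and 0.376 CPM without, so that value rests on few counts. In the catalogue 1 gene there overlaps another. The 4 falls on scaffold 8 at 808432 to 817556 were shared at least 2-fold by 1 gene at 64 h, by 0 genes at 48 h and by 3 genes in high nitrogen at 88 h.

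Single-exon genes, 368 in all, had 23 rises (6.25%) and 15 falls (4.08%) of at least 2-fold, beside 4.73% and 3.03% of all genes tested. Their calls were fewer, at 41.3%. Single-exon genes also had lower levels, with a median of 7.81 CPM against 41.5 CPM for all genes tested. In the group of lowest mean level, 7.07% of genes rose and 3.94% fell at least 2-fold. The part of level in the single-exon shares was not tested. Genes under 20 kb from a scaffold end, 316 in all, had 12 rises (3.80%) and 4 falls (1.27%) of at least 2-fold. Both shares lay below the 4.73% and 3.03% of all genes tested, and 40.5% of these genes were called.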
